A study of Mus musculus with 8 samples.

Results

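The genes described here are those of the MHC class II system in the corneas of naive BALB/c and C57BL/6N mice. They were chosen by name. The 10 genes are H2-Aa, H2-Ab1, H2-Ea-ps (often written H2-Ea) and H2-Eb1, which encode the chains of the I-A and I-E molecules, H2-DMa, H2-DMb1 and H2-DMb2, which encode the H2-DM peptide exchange factor, H2-Oa, Cd74 and Ciita. They are 10 of the 54532 genes listed in the table of the series. Total RNA of 4 corneas of each strain was sequenced. No allele was altered and no agent was given. Only male mice were used for sequencing according to the methods of the study, which call the first strain BALB/cN. The methods state an age of 8 to 10 weeks for the mice of both strains used for corneal phenotyping and do not repeat it for the sequenced mice. As inbred strains, BALB/c mice carry the d haplotype of the H2 complex and C57BL/6 mice the b haplotype, so that the strain and the class II alleles cannot be told apart. The methods do not say whether the 4 corneas of a strain came from 4 animals. P-values therefore measure the spread between corneas.

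MHC class II molecules are pairs of an alpha and a beta chain that present peptides from the endosomal pathway to CD4 T cells. In the endoplasmic reticulum the chains assemble with the invariant chain, the product of Cd74. Endosomal proteases trim the invariant chain to the fragment CLIP, and H2-DM exchanges CLIP for antigenic peptides, an activity that H2-O restrains. Transcription of these genes depends on the transactivator CIITA, which has no DNA binding of its own and is held by the factors RFX, CREB and NF-Y on the X and Y boxes of class II promoters. In the cornea, class II molecules are carried mainly by dendritic cells and macrophages of the limbus and stroma.

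H2-DMb1 and H2-DMb2 are neighbouring copies of the H2-DM beta chain gene, and the values of each depend on how reads were divided between them. In the GENCODE M21 annotation of GRCm38, H2-DMb2 (ENSMUSG00000037548) lies at chr17:34143307-34151555 and H2-DMb1 (ENSMUSG00000079547) at chr17:34153072-34160230, both on the plus strand. The coding sequences of both are 783 bases long in the reference and differ at 32 positions, an identity of 95.9%. The differences are concentrated in coding exon 2, where 24 of 282 bases differ. Coding exon 3 has 2 differences in 285 bases and coding exon 4 has none in 117. The first pair of lines shows the least alike 150 bases, in coding exon 2 (H2-DMb1 chr17:34155548-34155697, H2-DMb2 chr17:34147766-34147915), with the 23 differing positions in capitals. The last line shows 150 bases of coding exon 3 that are identical in both (H2-DMb1 chr17:34157299-34157448, H2-DMb2 chr17:34148604-34148753). All are reference sequence, 5′ to 3′, taken from the GENCODE transcripts.
H2-DMb1 exon 2: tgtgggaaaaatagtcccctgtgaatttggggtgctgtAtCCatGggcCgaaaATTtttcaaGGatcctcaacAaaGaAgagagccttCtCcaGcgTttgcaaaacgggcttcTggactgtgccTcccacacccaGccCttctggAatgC
H2-DMb2 exon 2: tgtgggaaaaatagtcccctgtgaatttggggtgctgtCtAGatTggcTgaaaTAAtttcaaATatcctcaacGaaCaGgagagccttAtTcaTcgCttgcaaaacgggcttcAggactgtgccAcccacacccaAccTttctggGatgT
H2-DMb1 and H2-DMb2 exon 3: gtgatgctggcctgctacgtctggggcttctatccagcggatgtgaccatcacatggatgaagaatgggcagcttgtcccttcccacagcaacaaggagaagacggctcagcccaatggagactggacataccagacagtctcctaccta

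A read of 100 bases from the identical stretches fits both genes. Of all windows of 100 bases in the annotated transcripts, 179 were shared by the pair, which is 11.3% of the windows of H2-DMb1 and 10.3% of those of H2-DMb2. These shares refer to single windows and not to read pairs, of which the other end can lie outside a shared stretch. The longest identical run within the coding sequence was 221 bases. No other member shared a window of this length with another class II gene.

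The promoters were searched for letters of the boxes through which CIITA acts, and whether the letters found work as such boxes was not tested. RefSeq promoter sequences (GRCm38.p6, 250 bases before to 50 after the start) were at hand for 6 of the 10 members, and the stretches of 5 of them are shown because the pair H2-DMb1 and H2-DMb2 can be read beside the other class II promoters. Capitals mark the letters GATTGG, the core of the Y box, AGCAAC, the core of the X1 box, GATGATGC, an X2 box core, and TGACGTCA, the cAMP response element. These letters were chosen after the promoters had been viewed. On either strand, they occur in 16.1%, 14.8%, 0.703% and 1.79% of 32851 promoters of the same length, respectively. The stretches lie at chr17:34153084-34153144, chr17:34145113-34145173, chr17:34287857-34287917, chr17:34305762-34305822 and chr17:34092290-34092350 in the order of the lines, and H2-Aa is on the minus strand.
H2-DMb1 promoter: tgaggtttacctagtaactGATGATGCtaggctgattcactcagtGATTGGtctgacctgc
H2-DMb2 promoter: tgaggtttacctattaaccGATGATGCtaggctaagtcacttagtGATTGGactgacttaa
H2-Aa promoter: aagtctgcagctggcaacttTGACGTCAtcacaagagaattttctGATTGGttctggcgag
H2-Eb1 promoter: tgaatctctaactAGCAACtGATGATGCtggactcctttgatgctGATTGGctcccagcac
H2-Oa promoter: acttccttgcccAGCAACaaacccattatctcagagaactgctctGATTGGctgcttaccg

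Each stretch was cut at a set distance around its Y box core, which follows the X box letters at about the same distance. The promoters of H2-DMb1 and H2-DMb2 hold the same X2 and Y box letters. For H2-DMa, whose annotated starts gave 2 windows, the letters GATTGG were found in 1 window, 199 bases before the start, and the X box letters in neither. All sequences are those of the reference strain, and the BALB/c alleles were not read here.

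The authors deposited rlog values, which are regularized log2 counts of DESeq2 that are normalized for library size and drawn towards the mean of a gene when reads are few. Read counts were recovered from these values by inverting the transformation. Of the 72 recovered values of the 9 members above 0, 67 lay within 0.1 of a whole read. The corneas held 36700196 to 41151703 recovered reads in BALB/c and 29677905 to 36981475 in C57BL/6N. Reads are given per cornea in the order of replicates 1 to 4, normalized reads are reads divided by the size factor of the cornea, and differences are BALB/c minus C57BL/6N throughout. Limma was run over the 25402 genes whose rlog values averaged 0 or more, and a Benjamini-Hochberg adjusted p of 0.01 or less was taken as a call.

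Among the 10 members, 9 could be tested and 2 were called, H2-Ea-ps as higher and H2-DMb1 as lower in BALB/c. Over all genes tested, 5.74% were called, 2.83% as higher and 2.91% as lower. A further pair, H2-DMa and H2-DMb2, had adjusted p-values between 0.01 and 0.05, and 11.2% of all genes had a value of 0.05 or less. The corneas of both strains did not overlap in 4 members, 3 of them higher and 1 lower in BALB/c, against 18.3% of all genes tested, 8.75% higher and 9.58% lower. On the rlog scale 8 of the 9 differences were above 0 and their median was 0.34, while the median over all genes tested was 0.01. These differences are not separate observations. Deviations of H2-Aa, H2-Ab1, H2-Eb1 and Cd74 from their strain means correlated at 0.916 to 0.982 with the mean deviation of these 4 genes. The other members correlated with it at −0.0472 (Ciita) to 0.906 (H2-DMb1). The count is therefore no measure of a joint shift. The I-E alpha chain gene and the H2-DM genes were thus the members without overlap, while the I-A genes, H2-Eb1, Cd74 and Ciita overlapped between the strains.

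**Figure D1:**
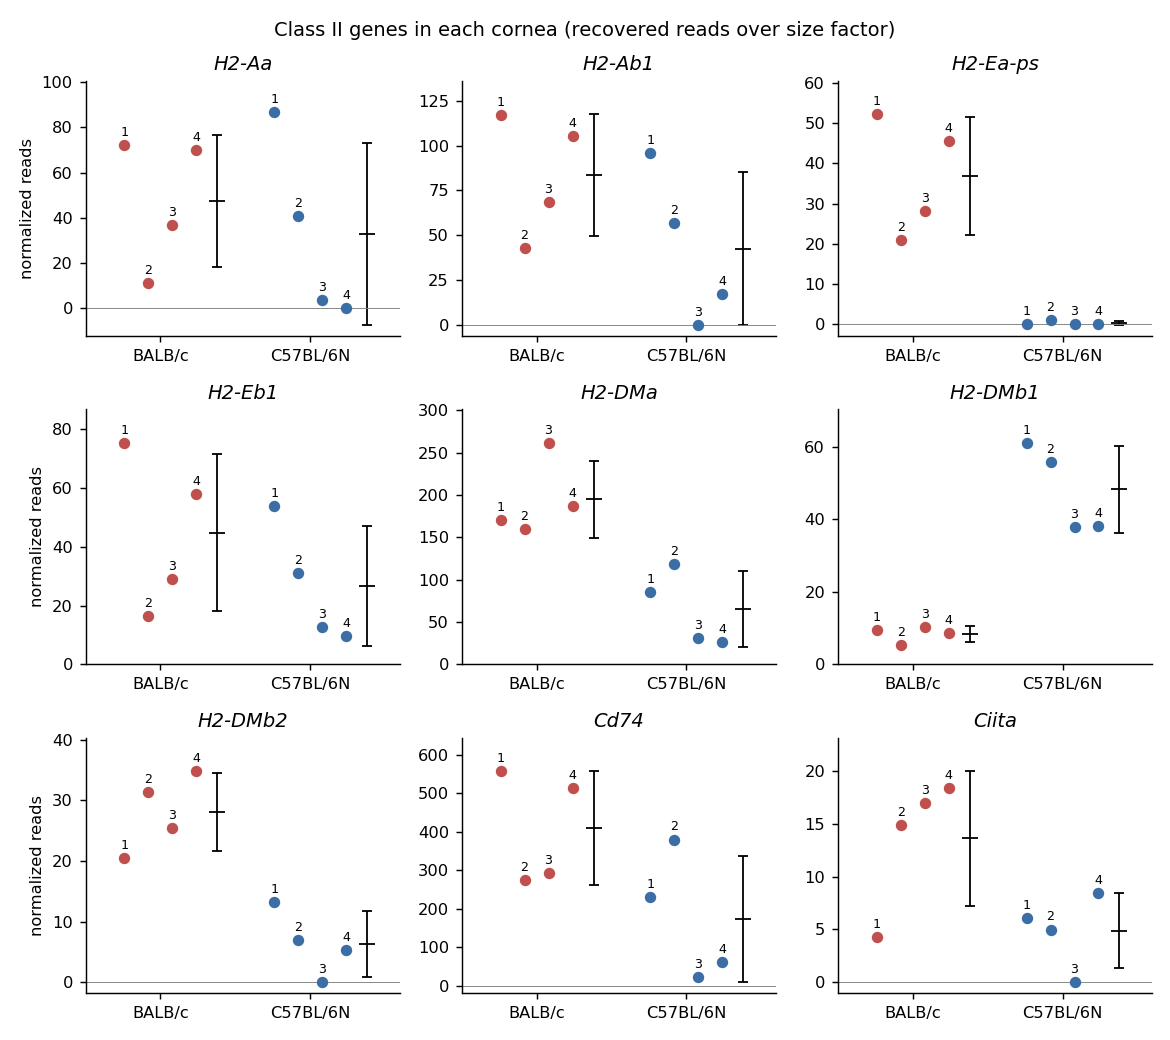
Normalized reads of the 9 members above 0 (vertical axes, linear, a scale for each gene) in each cornea of BALB/c (red) and C57BL/6N (blue). Small digits are replicate numbers and black bars are the mean and SD of 4 corneas. H2-Ea-ps, H2-DMa, H2-DMb1 and H2-DMb2 do not overlap between the strains, and C57BL/6N replicates 3 and 4 lie lowest for H2-Aa, H2-Eb1, H2-DMa and Cd74.

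H2-Ea-ps (ENSMUSG00000036322, chr17:34341959-34344645, minus strand) encodes the alpha chain of I-E and is annotated as a polymorphic pseudogene, since mice of the b haplotype are known to carry a promoter deletion and to make no I-E. The BALB/c corneas held 61, 24, 30 and 47 reads and the C57BL/6N corneas 0, 1, 0 and 0 reads. Every BALB/c cornea was thus far above every C57BL/6N cornea, in which a single read was counted. The mean was 36.8 ± 14.6 normalized reads in BALB/c and 0.25 ± 0.5 in C57BL/6N (SD, n = 4 each). With 162 reads against 1, the ratio of the rates was 137, with an exact 95% interval for counting error alone of 24.2 to 5430. The rlog difference of 0.61 (SE 0.093, adjusted p = 0.00237 by limma) understates this ratio because the transformation shrinks a gene with so few reads. The exact two-sided permutation p of the rlog values was 0.0286, the smallest that 4 corneas against 4 allow.

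H2-Eb1 (ENSMUSG00000060586, chr17:34305867-34316674, plus strand) encodes the I-E beta chain, the partner of the H2-Ea product. It had 88, 19, 31 and 60 reads in BALB/c and 53, 31, 10 and 9 reads in C57BL/6N. Both strains held corneas with many and with few reads, and their ranges overlapped. The mean was 44.8 ± 26.8 normalized reads in BALB/c and 26.8 ± 20.5 in C57BL/6N, and the rlog difference was 0.22 (SE 0.18, adjusted p = 0.507, limma). The beta chain transcript of I-E was therefore counted in all 4 C57BL/6N corneas, in which the alpha chain transcript was at 1 read in total.

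I-A is the class II molecule that both haplotypes make. Its alpha chain gene H2-Aa (ENSMUSG00000036594, chr17:34282744-34287823, minus strand) had 84, 13, 39 and 72 reads in BALB/c and 85, 41, 3 and 0 reads in C57BL/6N. Its beta chain gene H2-Ab1 (ENSMUSG00000073421, chr17:34257689-34269419, plus strand) had 137, 49, 73 and 109 reads in BALB/c and 94, 57, 0 and 16 reads in C57BL/6N. In both genes BALB/c replicate 2 was the lowest of its strain and C57BL/6N replicates 3 and 4 were the lowest of all corneas. The means of H2-Aa were 47.5 ± 29.0 and 32.8 ± 40.3 normalized reads, and its rlog difference was 0.25 (SE 0.27, adjusted p = 0.626). The means of H2-Ab1 were 83.6 ± 34.2 and 42.4 ± 42.8, and its rlog difference was 0.48 (SE 0.26, adjusted p = 0.296). Neither difference exceeded the spread between corneas. A count of 0 reads in a cornea allows up to 3 reads at this depth. In bulk tissue, fewer class II cells and less class II RNA per cell cannot be told apart.

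Cd74 (ENSMUSG00000024610, chr18:60803848-60812652, plus strand), the invariant chain, was the most abundant member. It had 650, 313, 312 and 530 reads in BALB/c and 227, 380, 18 and 58 reads in C57BL/6N. The corneas of both strains overlapped through C57BL/6N replicate 2, while C57BL/6N replicates 3 and 4 stood far below all others. The means were 409 ± 147 and 174 ± 164 normalized reads, a ratio of 2.36, and the rlog difference was 1.04 (SE 0.40, adjusted p = 0.151, limma). Per read of H2-Aa, H2-Ab1 and H2-Eb1 together, Cd74 had 2.59 ± 0.852 reads in BALB/c and 1.91 ± 0.892 in C57BL/6N, which did not differ beyond the spread (exact permutation p = 0.371, 2-sided, n = 4 each).

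Ciita (ENSMUSG00000022504, chr16:10480059-10528418, plus strand), the transactivator, was counted at few reads. They were 5, 17, 18 and 19 in BALB/c and 6, 5, 0 and 8 in C57BL/6N. Replicates 2 to 4 of BALB/c were above all C57BL/6N corneas and BALB/c replicate 1 was among them. The means were 13.6 ± 6.39 and 4.89 ± 3.57 normalized reads, and the rlog difference was 0.15 (SE 0.068, adjusted p = 0.23, limma). BALB/c replicate 1, which had the lowest Ciita of its strain, had the highest H2-Aa, H2-Ab1, H2-Ea-ps, H2-Eb1 and Cd74 reads of its strain.

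H2-DMa (ENSMUSG00000037649, chr17:34119541-34139101, plus strand) encodes the alpha chain of H2-DM. It had 199, 183, 278 and 193 reads in BALB/c and 84, 119, 25 and 25 reads in C57BL/6N. All BALB/c corneas were above all C57BL/6N corneas. The means were 195 ± 45.9 and 65.6 ± 44.5 normalized reads, a ratio of 2.97, and the rlog difference was 0.88 (SE 0.20, adjusted p = 0.0211, limma), which misses the threshold of 0.01. Without C57BL/6N replicate 2, the C57BL/6N cornea with the most H2-DMa reads, the difference was 1.05 and the adjusted p 0.00727. In the other fits that left out 1 cornea, the adjusted p was 0.0276 to 0.0668 (limma). Of the exon bases of H2-DMa, 10.4% overlap Brd2 on the other strand. The libraries kept the strand, but whether the counting used it is not given in the sources used here. Brd2, a chromatin reader, was at 8466 ± 376 normalized reads in BALB/c and 8772 ± 241 in C57BL/6N, and its rlog difference was −0.04 (SE 0.043, adjusted p = 0.629).

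The beta chain genes of H2-DM were counted in opposite proportions. H2-DMb1 had 11, 6, 11 and 9 reads in BALB/c and 60, 56, 30 and 36 reads in C57BL/6N. H2-DMb2 had 24, 36, 27 and 36 reads in BALB/c and 13, 7, 0 and 5 reads in C57BL/6N. Neither gene overlapped between the strains, and the order was reversed between the genes. H2-DMb1 was at 8.44 ± 2.23 normalized reads in BALB/c and 48.3 ± 12.04 in C57BL/6N, 5.72-fold higher in C57BL/6N, with an rlog difference of −0.56 (SE 0.085, adjusted p = 0.00229, limma). H2-DMb2 was at 28.1 ± 6.36 and 6.38 ± 5.46 normalized reads, a ratio of 4.4, with an rlog difference of 0.34 (SE 0.078, adjusted p = 0.021), which misses the threshold.

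H2-DMb1 made up 31.4%, 14.3%, 28.9% and 20% of the pair's reads in the BALB/c corneas and 82.2%, 88.9%, 100% and 87.8% in the C57BL/6N corneas. With 30 to 73 reads for the pair in a cornea, the exact 95% intervals for counting error reached up to 49.3% in BALB/c and down to 71.5% in C57BL/6N, so that the intervals of both strains did not meet. The mean share was 23.7 ± 7.95% in BALB/c and 89.7 ± 7.45% in C57BL/6N (exact permutation p = 0.0286, the smallest possible, n = 4 each). This share was chosen after the values had been seen.

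Summed, H2-DMb1 and H2-DMb2 had 35, 42, 38 and 45 reads in BALB/c and 73, 63, 30 and 41 reads in C57BL/6N. The normalized reads of the sum overlapped between the strains, with C57BL/6N replicates 3 and 4 among the BALB/c corneas, and the means were 36.5 ± 5.58 and 54.7 ± 16.97. The exact permutation p of these sums was 0.0857 (n = 4 each, 2-sided). When the rlog values of the pair were summed on the linear scale, the difference was −0.21 (SE 0.085, adjusted p = 0.172, limma), and the corneas of the strains did not overlap on this shrunken scale (exact permutation p = 0.0286). Reads of a strain were aligned to a genome of that strain, and how reads that fit both copies were treated is not given in the sources used here. Whether the alignment takes part in the exchange between the copies was not tested.

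**Figure D2:**
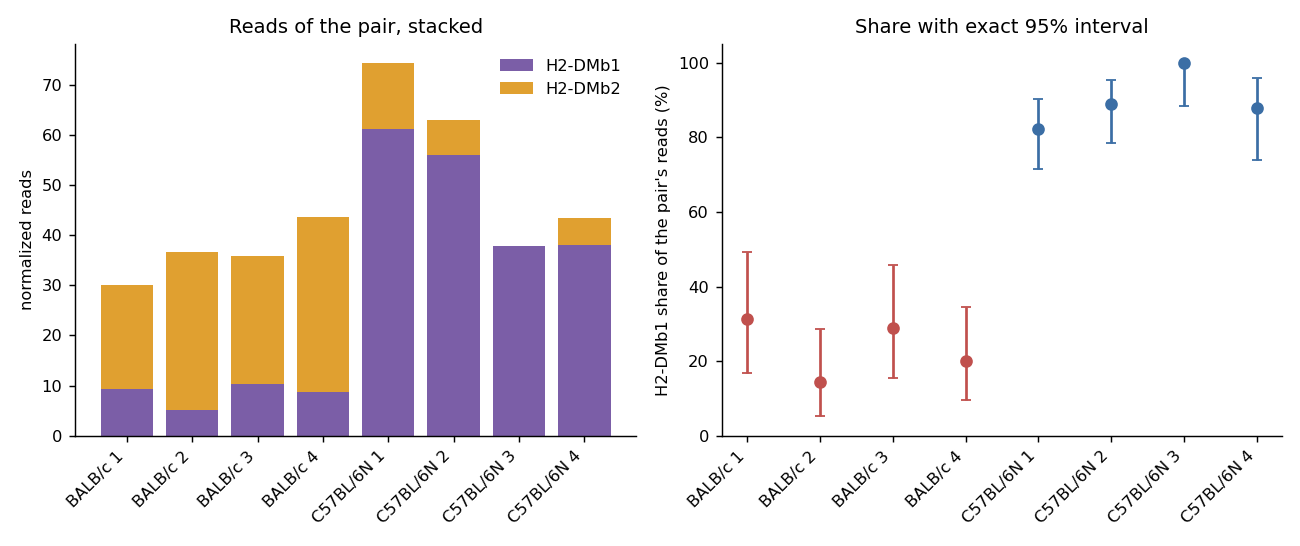
Left, normalized reads of H2-DMb1 (violet) and H2-DMb2 (yellow) stacked for each cornea, named by strain and replicate. Right, the H2-DMb1 share of the pair's reads in percent (BALB/c red, C57BL/6N blue) with exact 95% binomial intervals. The share is 14.3 to 31.4% in BALB/c and 82.2 to 100% in C57BL/6N, while the heights of the stacks overlap.

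The ratio of alpha to beta chain reads of H2-DM differed between the strains as well. H2-DMa had 5.69, 4.36, 7.32 and 4.29 reads per read of the pair in BALB/c and 1.15, 1.89, 0.833 and 0.61 in C57BL/6N. The lowest BALB/c cornea was above the highest C57BL/6N cornea. The means were 5.41 ± 1.42 and 1.12 ± 0.558 (exact permutation p = 0.0286, the smallest possible, n = 4 each). This ratio, too, was chosen after the values had been seen and is not corrected for gene length.

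Of H2-O, the restraint of H2-DM, the alpha chain transcript was not detectable at this depth. H2-Oa (ENSMUSG00000024334, chr17:34092340-34095234, plus strand) was at 0 in all 8 corneas, which allows up to 3 reads in each. Its partner H2-Ob, which is not among the 10 members, had 5 reads in BALB/c replicate 1 and 0 in the other corneas. H2-Eb2, a further class II beta chain gene between H2-Eb1 and H2-Ea-ps, was at 0 in all corneas.

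Per kilobase of annotated exon, Cd74 was the most abundant member in BALB/c at 244 ± 87.4 normalized reads per kilobase, above H2-DMa at 56.5 ± 13.3 without overlap. H2-DMa was followed by H2-Ea-ps (35.5 ± 14.1), H2-Ab1 (32.6 ± 13.3), H2-Eb1 (23.1 ± 13.8), H2-DMb2 (16.1 ± 3.64), H2-Aa (12.5 ± 7.63) and H2-DMb1 (5.02 ± 1.33), and each of these overlapped its neighbour in the order. Ciita was lowest at 1.43 ± 0.671 normalized reads per kilobase, below H2-DMb1 without overlap. In C57BL/6N, Cd74 was again first at 104 ± 98 but H2-DMb1 was second at 28.7 ± 7.16, followed by H2-DMa at 19 ± 12.9, and every gene overlapped its neighbour. H2-Ea-ps, the third in BALB/c, was last in C57BL/6N at 0.241 ± 0.482 normalized reads per kilobase. Exons of all annotated transcripts enter these lengths, so that genes with long rare transcripts appear lower.

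Between the outermost members on chromosome 17 (chr17:34092340-34344645), 5 protein-coding genes other than the members were tested. They are Brd2 and the class I processing genes Psmb9, Tap1, Psmb8 and Tap2, of which 2 were called, both higher in BALB/c. Calls of this direction were made for 2.83% of all genes tested. Tap1, a subunit of the peptide transporter of class I presentation, was at 2938 ± 391 normalized reads in BALB/c and 1301 ± 109 in C57BL/6N, with an rlog difference of 0.87 (SE 0.081, adjusted p = 0.000111). Psmb9, a subunit of the immunoproteasome, was at 473 ± 9.09 and 212 ± 52.6, with an rlog difference of 0.77 (SE 0.10, adjusted p = 0.00121). The nearest differences without a call were Psmb8 (adjusted p = 0.013) and Tap2 (adjusted p = 0.215). Higher values in BALB/c were thus not limited to the class II genes of this interval.

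**Figure D3:**
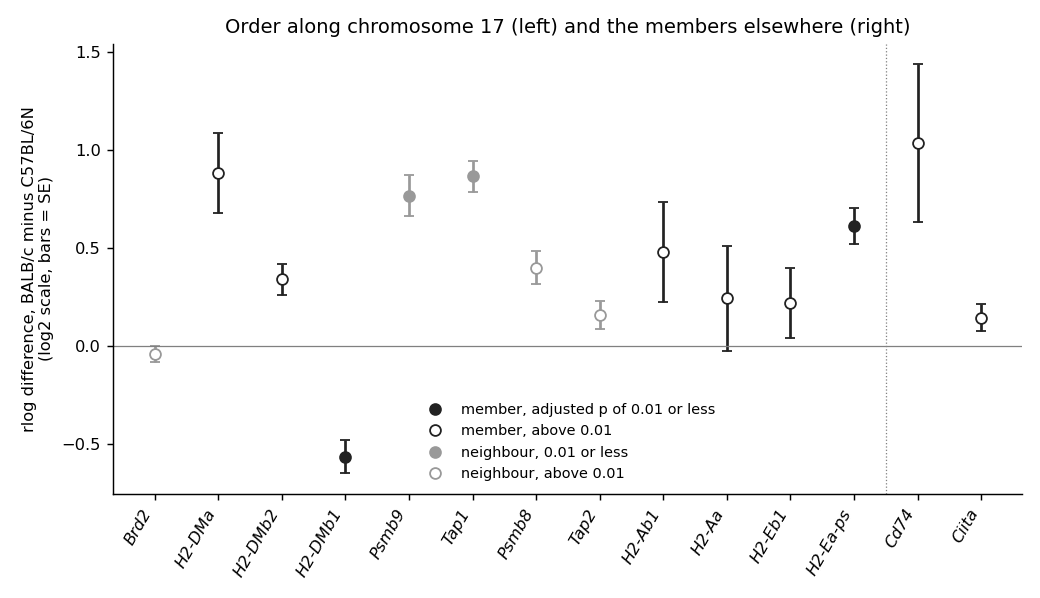
Differences of rlog values (BALB/c minus C57BL/6N, log2 scale, points with SE bars) for the tested protein-coding genes and H2-Ea-ps in their order along chromosome 17, and for Cd74 and Ciita, which lie elsewhere, right of the dotted line. Black marks members, grey their neighbours, and filled points have an adjusted p of 0.01 or less. H2-DMb1 at −0.56 is the only member below 0, next to H2-DMb2 at 0.34.

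The factors that hold CIITA on the promoter were expressed in all corneas. The list of 9 promoter factors tested also includes Crebbp and Ep300, which do not belong to RFX, CREB or NF-Y. Of the 9, 1 was called, against 5.74% of all genes tested, and the median difference of the 9 was −0.01. The called gene was Rfxank, a subunit of RFX, at 326 ± 57.1 normalized reads in BALB/c and 584 ± 74.7 in C57BL/6N, with an rlog difference of −0.57 (SE 0.10, adjusted p = 0.00588). Rfx5 and Rfxap, the other subunits of RFX, had differences of −0.01 and 0.16 (adjusted p = 0.968 and 0.308).

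Of the genes of the interferon gamma pathway, which induces CIITA, 11 of 12 could be tested, and 3 were called, all higher in BALB/c. Among all genes tested, 2.83% were called as higher. The median difference of the pathway genes was 0.10. Nlrc5, the relative of CIITA that acts on class I genes, was at 130 ± 29.8 normalized reads in BALB/c and 19.8 ± 8.3 in C57BL/6N, with an rlog difference of 1.078 (adjusted p = 0.000303). Socs1, an inhibitor of the pathway, differed by 0.66 (adjusted p = 0.00637) and Cd274, the ligand of PD-1, by 0.40 (adjusted p = 0.00589). Ifng itself was at 0 reads in all corneas. The receptor chain gene Ifngr1 differed by −0.20 (adjusted p = 0.0405) and Irf1 by −0.09 (adjusted p = 0.597), neither of which passed the threshold. Irf8, which did not pass it either, differed by 0.57 (adjusted p = 0.0158, limma), and its rlog values did not overlap between the strains. Of the 4 called genes of both lists, 1 was called when BALB/c replicate 2 or 3 or C57BL/6N replicate 1, 3 or 4 was left out and 2 without BALB/c replicate 1 or 4, and Nlrc5 was among them each time.

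Among 13 genes of endosomal processing, 2 were called, both higher in BALB/c, against 2.83% of all genes tested. The median difference of the 13 was 0.12. Ctss, the protease of the last steps of invariant chain cleavage, was at 421 ± 45.5 normalized reads in BALB/c and 131 ± 28.2 in C57BL/6N, with an rlog difference of 1.06 (SE 0.10, adjusted p = 0.000133). Lgmn, which encodes the asparagine endopeptidase of endosomes, was at 3936 ± 141 and 2639 ± 231, with a difference of 0.43 (SE 0.057, adjusted p = 0.00104). The other 11 genes had differences from −0.30 (Ctsh) to 0.26 (Ifi30).

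**Figure D4:**
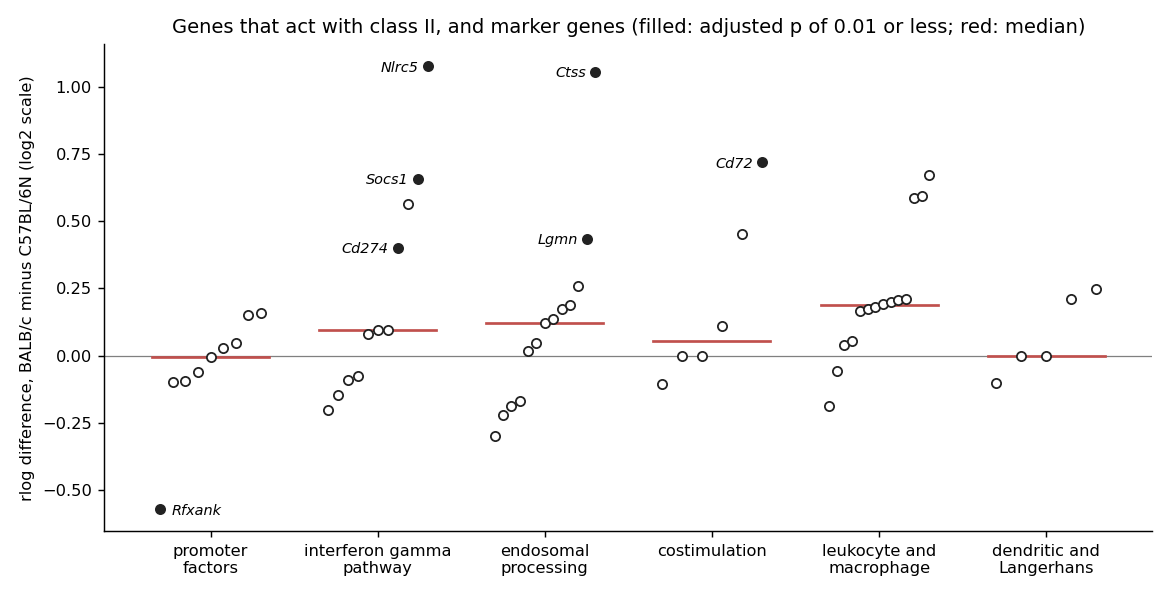
Differences of rlog values (BALB/c minus C57BL/6N, log2 scale) of every tested gene in 6 lists, ordered by size within a list. Filled points have an adjusted p of 0.01 or less and are named, and red lines are medians. Nlrc5 at 1.078 and Ctss at 1.06 lie highest, and Rfxank at −0.57 lowest.

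Class II genes are carried by antigen presenting cells, so their markers were set beside the members. Of 14 leukocyte and macrophage markers, none was called, 12 had a difference above 0 and the median was 0.19. The most abundant of them were Itgam, the integrin alpha M chain, with a difference of −0.19 (adjusted p = 0.374), and Cd68 with 0.21 (adjusted p = 0.119). The largest differences were those of Lyz2 (0.67, adjusted p = 0.0978), Cx3cr1 (0.59, adjusted p = 0.195) and Csf1r (0.59, adjusted p = 0.451, all by limma). Of 12 dendritic and Langerhans cell markers, 5 were tested and none was called, and the median was −0.002. Sirpa differed by 0.25 (adjusted p = 0.0443) and Zbtb46, a factor of classical dendritic cells, by −0.002 (adjusted p = 0.996). Itgax, the integrin alpha X chain, had 16 to 31 reads in the BALB/c corneas and 0 to 14 in the C57BL/6N corneas. Its rlog values overlapped between the strains, with a difference of 0.21 (adjusted p = 0.122, limma). Of the 5 tested markers, 2 had a difference above 0. Xcr1 and Ccr7 were at 0 in all corneas, and Cd207, the langerin of Langerhans cells, at 4 recovered reads in all. Of 6 B cell markers, 2 were tested, Cr2 (0.27, adjusted p = 0.48) and Cd79b (0.12, adjusted p = 0.524), and Ms4a1 was at 0 throughout. Of 6 T cell markers, 4 were tested and none was called, among them Lck (0.23, adjusted p = 0.22) and Trac (−0.20, adjusted p = 0.389), while Cd3d and Cd8a were at 0. Of 6 costimulation genes, Cd72, a receptor known from B cells, was called, at 95.7 ± 28.4 normalized reads in BALB/c and 25.6 ± 12.7 in C57BL/6N (rlog difference 0.72, SE 0.14, adjusted p = 0.0078). Cd72 was not called in any fit that left out 1 cornea other than BALB/c replicate 2. As higher in BALB/c, 2.83% of all genes tested were called.

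Within each strain, the I-A genes, H2-Eb1 and Cd74 were lowest in the corneas with the least stromal transcript. The mean rlog value of H2-Aa, H2-Ab1, H2-Eb1 and Cd74 was 6.48, 5.78, 6.02 and 6.40 in BALB/c and 6.21, 6.07, 5.12 and 5.29 in C57BL/6N. The mean of 7 stromal keratocyte markers was 14.4, 12.5, 14.4 and 14.4 in BALB/c and 14.8, 14.7, 11.6 and 11.8 in C57BL/6N. The 3 corneas with the least stromal transcript, BALB/c replicate 2 and C57BL/6N replicates 3 and 4, were those with the lowest class II mean of their strain. They were also lowest in the mean of the leukocyte and macrophage markers, at 6.08, 5.95 and 5.92 against 6.41 to 6.62 in the other corneas. The mean of the corneal epithelium markers was 16.4 to 16.6 in all 8 corneas. No stromal marker differed between the strains at the threshold, and the largest of their differences was that of Lum, 1.28 (adjusted p = 0.548). The part of stromal and leukocyte content in the class II differences was not tested beyond the values that follow.

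In the 5 corneas rich in stromal transcript, 3 of BALB/c and 2 of C57BL/6N, H2-Aa, H2-Ab1, H2-Eb1, Cd74 and Ciita overlapped between the strains. H2-Ea-ps was at 28.2 to 52.3 normalized reads in BALB/c and 0 to 0.999 in C57BL/6N there, H2-DMa at 171 to 262 and 85.6 to 119, H2-DMb1 at 8.72 to 10.4 and 56 to 61.1, and H2-DMb2 at 20.6 to 34.9 and 6.99 to 13.2. The sum of H2-DMb1 and H2-DMb2 was at 30 to 43.6 normalized reads in BALB/c and 63 to 74.4 in C57BL/6N there, without overlap, so that the overlap of the sum among all corneas rests on C57BL/6N replicates 3 and 4. The 4 members that did not overlap among all corneas cannot overlap in a part of them, so these ranges are no further evidence of their separation. With the stromal mean as a covariate in limma, H2-DMa was called (0.73, SE 0.12, adjusted p = 0.00149), the difference of Cd74 was 0.71 (SE 0.19, adjusted p = 0.0262) and that of H2-Aa 0.03 (SE 0.13, adjusted p = 0.915). These fits on 5 corneas and with a covariate leave H2-DMb1 called (adjusted p = 0.0087 and 0.000313), and H2-Ea-ps called with the covariate (0.00179) but not in the 5 corneas (0.0163).

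**Figure D5:**
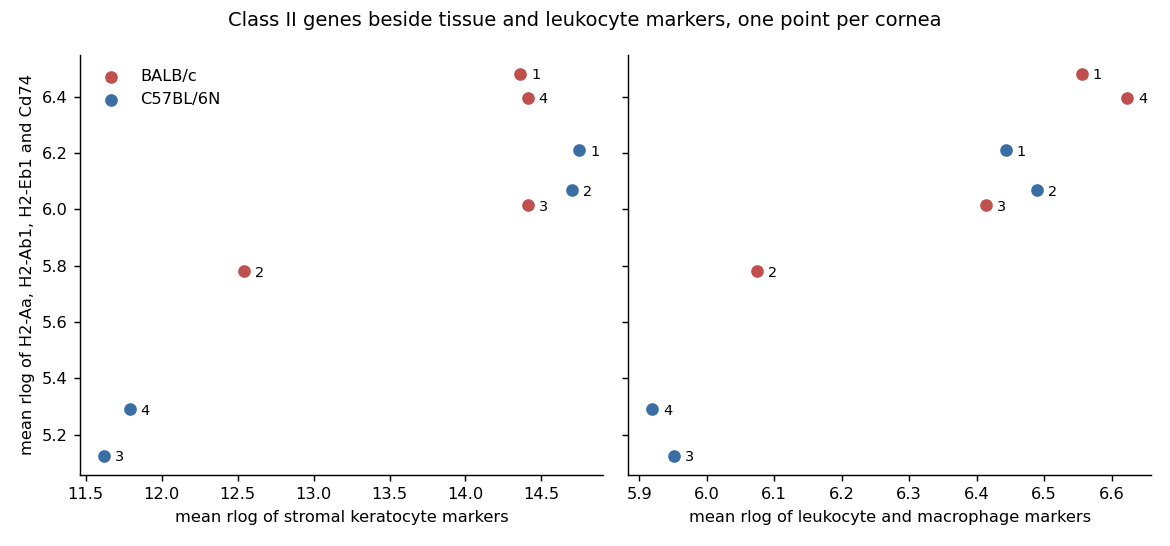
Mean rlog value of H2-Aa, H2-Ab1, H2-Eb1 and Cd74 (vertical axis, log2 scale) against the mean rlog value of 7 stromal keratocyte markers (left) and of 14 leukocyte and macrophage markers (right). Each point is a cornea with its replicate number, BALB/c in red and C57BL/6N in blue. C57BL/6N replicates 3 and 4 lie lowest on all axes, and BALB/c replicate 2 is the lowest BALB/c cornea on all.

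Genes whose deviations from the strain mean were most like those of H2-Aa, H2-Ab1, H2-Eb1 and Cd74 were Grk5, Scrn1, Kif5c, Plagl1 and Erp27. Their Pearson correlations with the mean deviation of the class II genes over the 8 corneas were 0.995, 0.992, 0.992, 0.99 and 0.99. These are the highest of all protein-coding genes tested and describe these 8 corneas, which share the split into stroma-rich and stroma-poor samples. None of the 5 differed between the strains at the threshold, with adjusted p-values from 0.55 to 0.934.

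Other tissue markers differed among the corneas as well. Lens markers averaged 7.40 and 6.83 on the rlog scale in BALB/c replicates 1 and 4 and 4.73 to 5.31 in the other corneas, and pigment cell markers 9.83 and 10.8 in these against 6.08 to 8.27. BALB/c replicates 1 and 4 were also the BALB/c corneas with the highest I-A, I-E and Cd74 reads. Without them, the differences of H2-Aa and H2-Eb1 were −0.04 and −0.03 (adjusted p = 0.978 and 0.963), H2-Ea-ps differed by 0.46 (adjusted p = 0.0152) and H2-DMb1 by −0.58 (adjusted p = 0.0377), so that no member was called. Of the lens, pigment cell, stromal keratocyte, corneal endothelium and lymphatic endothelium markers none was called. Of 7 corneal epithelium markers, 1 was called (Cldn7, 0.37, adjusted p = 0.00409), and of 6 conjunctiva markers, 4 were called, all lower in BALB/c (Krt13, −2.51, adjusted p = 6.95e-07, Krt19, Krt4 and Muc4). Over all genes tested, 2.83% were called as higher and 2.91% as lower. The other conjunctiva markers, Muc5ac and Krt8, had differences of 2.19 and 0.40 (adjusted p = 0.0225 and 0.0111), and every BALB/c cornea was above every C57BL/6N cornea in both. Their part in the class II values was not tested.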

How the data were processed

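Total RNA of 4 BALB/c and 4 C57BL/6N corneas was made into strand-specific libraries, which were sequenced from both ends over 100 bases. As the methods of the study describe, the authors trimmed reads, removed ribosomal and transfer RNA, aligned with TopHat2 2.1.1 to strain-specific versions of GRCm38, converted positions back with Lapels and counted reads on the exons of Ensembl genes with HTSeq 0.7.1. The authors deposited the output of the rlog function of DESeq2 1.30, which is normalized for library size and on a log2 scale, with 0 columns unused, and no raw counts were used here.

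The strains were compared with limma 3.58.1 in R 4.3.3 (lmFit, eBayes with a variance trend, Benjamini-Hochberg over the 25402 genes whose rlog values averaged 0 or more, threshold 0.01). The authors tested counts with DESeq2, recalibrated p-values and used the same threshold. Single values were compared with exact two-sided permutation tests (scipy 1.17.1, Python 3.11.15). Reads were recovered by inverting rlog, with constants fitted to mean counts of 1759 genes in a supplementary table of the study. At means of 80 to 300 normalized reads, 95.4% of recovered values came within 0.1 of a whole read, and 20.3% did when random fractions were added to them. At means of 1000 to 5000 the share was 37.8%. The procedures were run on simulated counts whose rlog values came from the same equation that was inverted. No differences in stromal content were simulated, so that run says little about the spread between these corneas.

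Gene names came from GENCODE M21, which held 31302 of the 31314 genes not at 0 throughout. The members and lists were chosen with earlier results of these data known, and 1 gene of the interferon gamma pathway is not reported here. Named are all members, H2-Ob, H2-Eb2, the called genes of each list (the 6 with the lowest adjusted p at most, or the 2 most abundant where none was called), called neighbours on chromosome 17 and the 5 genes most like the class II genes. Genes named beyond this rule, such as Ifng and Irf1, were chosen after their values were seen. The same holds for the fits on 5 stroma-rich corneas and without BALB/c replicates 1 and 4. Corneas of a strain differed by a chi-square of 5.83 to 28 per gene, so that the counts of none repeated those of another. The lowest values were those of C57BL/6N replicates 1 and 2 (5.97) and C57BL/6N replicates 3 and 4 (5.83). The other pairs of C57BL/6N corneas were at 19.2 to 21.6. Whether the corneas of such a close pair came from the same animal or dissection cannot be told from these values. Exact binomial intervals cover counting error only, since PCR copies are not independent molecules.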

Additional observations from a re-analysis of the deposited data

Results flagged for a closer look

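In H2-Ob, the beta chain gene of H2-O, BALB/c replicate 1 stood apart from the other BALB/c corneas. It had 5 reads against 0 in each of the others, and on the rlog scale its gap to the nearest cornea made up 0.999 of the range of the strain, above the critical value of Dixon's test for 4 samples. With 0 reads in all the others this share is close to its maximum for any count, so the test adds nothing to the reads. Of 21 groups of 4 corneas examined, this was the only such case. Chance gives about 1 in 20, a rate that does not hold for tied counts. With a mean rlog value below 0 the gene was not among those tested between the strains.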

How the results depend on the processing

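Of 188 comparisons of single members under other settings, 174 kept their direction and their side of the threshold, 7 lost a call, 4 gained one and 3 changed direction. The reversed differences, all far above the threshold, were those of H2-Aa (−0.0299 in the 5 stroma-rich corneas, −0.0382 without BALB/c replicates 1 and 4) and of H2-Eb1 (−0.0331 without BALB/c replicates 1 and 4). The cause was not tested.

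The replicate numbers do not mark shared animals or days in the labels. Deviations of same-numbered corneas correlated at 0.31, −0.53, −0.2 and −0.45. Stromal transcript also differed within each strain, so these correlations cannot show whether same-numbered corneas shared a day or batch. With the replicate block, 554 genes were called instead of 1458, no class II member instead of 2 (0 called), 1 promoter or pathway gene instead of 4, 1 endosomal gene instead of 2 and 0 antigen presenting cell markers instead of 1. The summed H2-DMb pair kept its side with the block.

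With p-values set against an empirical null (SD 1.67), 0 genes were called in all, 0 members and 0 genes of each list. At an adjusted p of 0.05, 2842 genes, 4 members, 4 endosomal genes and 2 antigen presenting cell markers were called. Centring on the median gave 958 genes and 1 endosomal gene. The stromal covariate gave 2385 genes and 2 antigen presenting cell markers. No filter and voom on recovered counts each gave 0 antigen presenting cell markers. In the 5 stroma-rich corneas 852 genes, 1 member, 0 promoter and pathway genes and 0 antigen presenting cell markers were called. Without BALB/c replicates 1 and 4 the counts were 447 genes, 0 members, 0 promoter and pathway genes, 1 endosomal gene and 0 antigen presenting cell markers. In these smaller fits fewer corneas were tested. Leaving out 1 cornea at a time gave 953 (without C57BL/6N replicate 4) to 1163 genes, 2 to 3 members, 1 to 3 promoter and pathway genes and 0 to 1 antigen presenting cell markers.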
